A study of Mus musculus with 24 samples.

Results

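The genes of mitosis and of the G2/M transition that precedes it were followed in muscle satellite cells and endothelial cells through 8 days of muscle regeneration. A list of 41 genes named the members. A member was taken as the probe set that carries its symbol in the array's annotation, and where several probe sets share a symbol the one with the highest mean value was used. This gave 40 of the 41 genes, out of 23279 genes with a symbol on the array. The cyclin gene Ccnb1 was not analysed here, because no probe set is annotated with its symbol. The study used 24 MoGene-2_0-st arrays, 3 for each of 8 groups: satellite cells and endothelial cells of the mouse tibialis anterior muscle, each from uninjured muscle (day 0) and 2, 4 or 8 days after injury with cardiotoxin, a snake venom toxin that destroys muscle fibres. Both cell types were isolated by flow cytometry from enzymatically digested muscle and gated as CD45 negative. Satellite cells are the muscle's resident stem cells and were further selected as Sca1 negative, CD31 negative, alpha7-integrin positive and CD34 positive or low. Endothelial cells, which line the vessels, were selected as positive for Sca1, CD34 and CD31. The controls are uninjured muscle, so time after injury and the injury itself were not varied separately. The strain, age and sex of the mice, and whether an array holds 1 mouse or a pool, are not given in the sources used here.

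Before a cell divides it passes from G2 phase into mitosis when Cdk1, bound to cyclins A and B, becomes active. Chromosomes then condense, spindle microtubules attach to kinetochores, a checkpoint holds the cell until every kinetochore is attached, and the anaphase promoting complex with its activator Cdc20 triggers chromosome separation, after which cytokinesis parts the daughter cells. The messenger RNAs of these genes are kept low in resting cells and rise together late in each cycle. Satellite cells of uninjured adult muscle are largely quiescent and divide after injury, and endothelial cells divide as vessels regrow. In sorted bulk samples, fewer dividing cells and less mitotic RNA per cell cannot be told apart.

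The promoters of the listed genes are shown first, and their relation to the expression values was not tested. RefSeq (GRCm38.p6) gave a window from 250 bases before to 50 bases after the transcription start for 36 of the 41 listed genes. Among the 36 is Ccnb1, which has no annotated probe set. The window was not analysed here for Ccna2, Kif20a, Aurkb, Foxm1 and Tpx2. The windows were searched on both strands for TTTGAA, the core of the cell cycle genes homology region bound by the MuvB complexes, for its variant TTCGAA, and for CCAAT, the site of the factor NF-Y. TTTGAA was present in 28 of the 36 genes (77.8%), against 20.2% of 27025 genes with a window. CCAAT was present in 26 of 36 (72.2%) against 41.1%, and TTCGAA in 3 of 36 (8.33%) against 1.80%. Both TTTGAA and CCAAT were found in 23 of 36 (63.9%) against 7.97% of all genes. In 1 member window a TTTGAA or TTCGAA match overlapped a CCAAT match. The windows of Birc5, Mad2l1, Melk, Nuf2 and Nusap1 held none of the 3 motifs, which says only that these letters are not in these windows. The 6 stretches below run from 120 bases before to 30 bases after the start and were chosen as genes on which the results below turn: Cdk1 and Ccnb2 for mitotic entry, Cdc20 for exit, Top2a among the largest differences, and Cenpa and Kif11 for the differences between the cell types. Each is written 5′ to 3′ on the strand of the gene, with matches to the 3 motifs on either strand in capitals.
Cdk1 (chr10:69352883-69353032, minus strand): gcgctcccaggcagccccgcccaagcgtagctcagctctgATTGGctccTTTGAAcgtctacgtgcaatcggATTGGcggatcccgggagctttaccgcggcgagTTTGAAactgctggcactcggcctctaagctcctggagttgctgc
Ccnb2 (chr9:70421525-70421674, minus strand): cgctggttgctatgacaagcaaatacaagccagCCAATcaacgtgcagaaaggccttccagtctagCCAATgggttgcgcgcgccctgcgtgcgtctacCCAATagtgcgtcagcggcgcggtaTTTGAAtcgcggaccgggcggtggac
Cdc20 (chr4:118437314-118437463, minus strand): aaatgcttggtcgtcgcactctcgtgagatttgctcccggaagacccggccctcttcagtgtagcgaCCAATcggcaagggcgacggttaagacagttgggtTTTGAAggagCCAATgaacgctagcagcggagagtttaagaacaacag
Cenpa (chr5:30666766-30666915, plus strand): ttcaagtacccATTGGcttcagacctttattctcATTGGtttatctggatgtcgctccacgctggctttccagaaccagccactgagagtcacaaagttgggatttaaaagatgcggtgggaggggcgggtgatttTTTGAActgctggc
Kif11 (chr19:37376262-37376411, plus strand): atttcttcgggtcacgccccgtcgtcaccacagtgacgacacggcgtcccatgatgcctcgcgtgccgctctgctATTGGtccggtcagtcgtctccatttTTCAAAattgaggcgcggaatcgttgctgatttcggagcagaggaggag
Top2a (chr11:99024160-99024309, minus strand): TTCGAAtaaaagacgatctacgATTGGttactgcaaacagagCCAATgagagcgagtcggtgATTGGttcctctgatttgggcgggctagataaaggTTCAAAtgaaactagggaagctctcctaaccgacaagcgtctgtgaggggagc
In the Cdk1 stretch the capitals hold 2 TTTGAA and 2 CCAAT matches, and in the Ccnb2 stretch 1 TTTGAA and 3 CCAAT matches. A match is a description of the sequence and was not tested as a binding site.

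The deposited values are log2 intensities after robust multi-array averaging (RMA), so a difference of 1 is 2-fold. Array medians lay between 4.11 and 4.40. Arrays of a group correlated at 0.863 to 0.957 over the 14064 genes tested. Groups were taken from the sample titles: the cell type characteristic contradicts the title for 12 samples, and the time point characteristic does so for 18. Pax7, the defining transcription factor of satellite cells, lay at 7.40 to 9.80 in the satellite cell arrays of days 0, 4 and 8 and at 4.67 to 5.70 in those of day 2, which overlaps the 4.22 to 5.65 of the endothelial arrays. Itga7, which encodes the alpha7-integrin of the gate, lay at 6.03 to 6.67 on day 2, below the 7.66 to 8.77 of the other satellite cell arrays. These Itga7 values lay above the 4.41 to 5.97 of the endothelial arrays. Against endothelial cells on day 2, 4 of 12 satellite and myogenic markers were called higher and 0 lower, beside 819 and 887 of the 14064 genes. All 19 leukocyte markers were also called higher in that comparison. Below, markers that go against the label means the low Pax7 and Itga7 values of the day 2 satellite cell arrays. Satellite cells on day 2 means throughout the arrays so labelled. Pecam1, which encodes CD31, lay at 11.29 to 11.70 in the endothelial arrays and at 7.19 to 10.78 in the satellite cell arrays. The titles call the arrays of a group biological replicates, and p-values measure the spread between these samples. Replicate 2 of satellite cells on day 2 stood apart from the other arrays of its group: its mean over 13 endothelial markers was 8.66 against 6.72 and 7.00, and Pecam1 reached 10.78 there.

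Most mitosis genes were called higher in satellite cells on days 4 and 8 after injury. Most were also called higher in the arrays labelled satellite cells on day 2, whose markers go against that label. In endothelial cells most were called higher on days 2 and 4 and 20 of 40 on day 8, and no member was called lower in either cell type. In satellite cells 34 of 40 members were called higher than day 0 on day 2, 39 on day 4 and 36 on day 8. Called means limma's adjusted p under 0.05 over the 14064 genes tested and a log2 difference of at least 1. Over all genes the shares called higher were 10.9%, 6.53% and 4.38% on those days, and the shares called lower 9.67%, 5.47% and 2%. In endothelial cells 29, 36 and 20 of the 40 members were called higher, where 3.73%, 3.11% and 1.11% of all genes were called higher and 3.01%, 2.22% and 0.946% lower. The median member difference from day 0 was 1.84, 2.14 and 1.97 in satellite cells and 1.56, 2.09 and 1.48 in endothelial cells, beside all-gene medians between -0.03 and 0.01. All 40 differences were positive on each day in both cell types. On day 8 in endothelial cells all 40 had an unadjusted p under 0.05 in limma, as did 1910 of the 14064 genes. The numbers called differ between cell types, but a count does not test a difference in response, which is given further on.

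The mean over the 40 members shows the course on each array. In satellite cells it was 3.95, 3.82 and 4.06 on day 0, 5.26, 6.48 and 5.49 on day 2, 6.20, 6.26 and 6.24 on day 4 and 6.25, 6.03 and 6.19 on day 8. The endothelial means were 3.97, 3.92 and 3.96 on day 0, 5.13, 5.94 and 5.56 on day 2, 6.39, 6.17 and 5.85 on day 4 and 5.76, 5.66 and 5.36 on day 8. No array of a later day overlapped day 0, and the day 2 satellite cell arrays were spread most widely (SD 0.65, n = 3, against 0.03 on day 4). On day 0 the members lay near the array median: 17 of them exceeded it on no day 0 array and 5 on all 6. A log2 difference from such levels can understate a rise, and no folds are given for most members. All 40 members passed the filter on low values, 26 of them only through arrays of later days, while 27 exceeded the array median on all 18 later arrays.

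**Figure D1:**
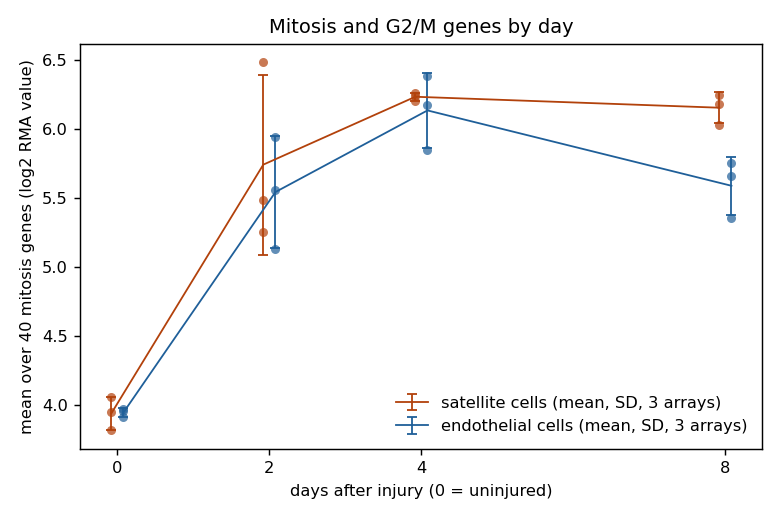
The mean over the 40 mitosis genes (log2 RMA value, vertical axis) is plotted for each array by day after injury, with group means joined and bars of 1 SD (3 arrays a group). Both cell types start at 3.82 to 4.06 and reach 5.85 to 6.39 on day 4, and on day 8 the endothelial arrays (5.36 to 5.76) lie below the satellite cell arrays (6.03 to 6.25). The day 2 satellite cell arrays carry markers that go against their label.

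Leukocyte markers were also called higher after injury, although both gates excluded CD45 positive cells. Of 19 leukocyte markers, 19, 16 and 11 were called higher than day 0 in satellite cells on days 2, 4 and 8, and 12, 14 and 4 in endothelial cells. The shares of all genes called higher were 10.9%, 6.53% and 4.38% in satellite cells and 3.73%, 3.11% and 1.11% in endothelial cells. The mean level of the leukocyte markers in satellite cells ranged from 3.67 to 4.30 on day 0, 8.95 to 10.58 on day 2, 6.94 to 8.10 on day 4 and 5.34 to 6.55 on day 8. The endothelial ranges were 3.97 to 4.10, 5.90 to 8.23, 6.06 to 8.13 and 4.96 to 5.82. From day 2 to day 4 in satellite cells 10 of the 19 markers were called lower, as were 810 of the 14064 genes tested. The median member difference for that step was 0.41. Ptprc, which encodes CD45, was at 9.82, 8.01 and 9.67 in satellite cells on day 2 and at 3.43, 2.99 and 4.07 in endothelial cells on day 8, against 2.78 to 3.13 on all day 0 arrays. On day 2 the satellite cell array with the highest member mean (6.48) had the lowest leukocyte mean (8.95), and the endothelial array with the highest member mean (5.94) also had the lowest (5.90). The endothelial arrays of day 4 and the satellite cell arrays of day 8 were in the same order on both measures. In satellite cells on day 4 and endothelial cells on day 8 the orders differed. The part of leukocytes in the mitosis gene differences was not tested.

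**Figure D2:**
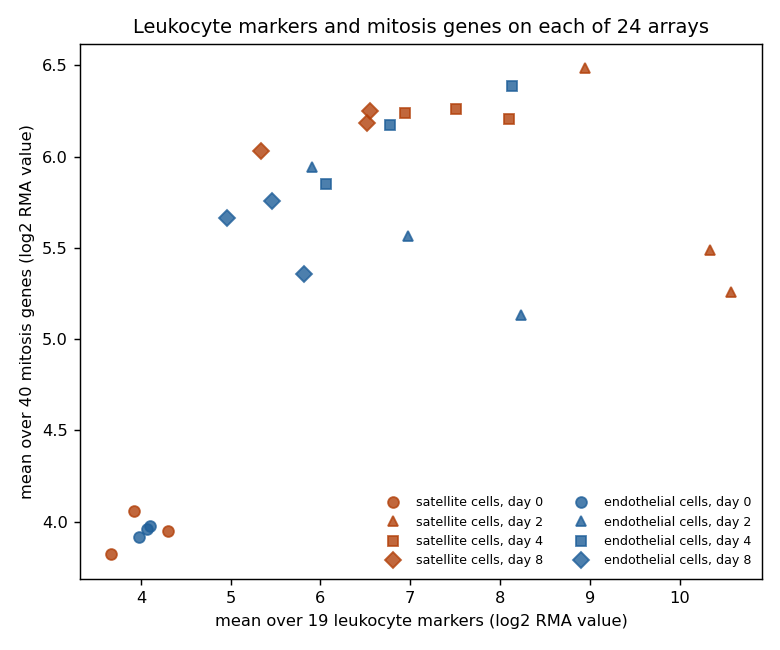
Each of the 24 arrays is placed by its mean over 19 leukocyte markers (horizontal, log2 RMA value) and its mean over the 40 mitosis genes (vertical, log2 RMA value), with colour for cell type and symbol for day. The 2 arrays labelled satellite cells of day 2 with leukocyte means above 10 have member means of 5.26 and 5.49, below those of day 4 at 6.20 to 6.26.

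Other cell types' markers moved too. In satellite cells 10.9%, 6.53% and 4.38% of all genes were called higher on days 2, 4 and 8, and 9.67%, 5.47% and 2% lower. In endothelial cells the shares were 3.73%, 3.11% and 1.11% higher and 3.01%, 2.22% and 0.946% lower. In satellite cells on day 2, 9 of 12 satellite and myogenic markers were called lower (median difference -2.37), and so were 10 of 10 pericyte and smooth muscle markers (-2.90) and 5 of 8 fibro-adipogenic markers (-1.63), with 1 of the 8 called higher. On days 4 and 8 the myogenic list had 3 higher each and 2 and 1 lower, the pericyte list 8 and 3 lower, and the fibro-adipogenic list 2 higher and 3 lower on each. Endothelial markers were called higher in satellite cells for 7, 5 and 7 of 13 on days 2, 4 and 8. Myofibre markers were called higher there for 0, 3 and 5 of 7. In endothelial cells the endothelial list had 2, 1 and 0 of 13 lower and pericyte markers 4, 5 and 4 of 10 lower. Fibro-adipogenic markers were called higher there for 0, 1 and 3 of 8, myofibre markers lower for 4, 1 and 0 of 7, and the myogenic list had 2, 1 and 0 of 12 lower and 0, 0 and 1 higher. The part of these cell types in the mitosis gene differences was not tested. Of the 2 Schwann and the 2 erythroid markers tested, 1 Schwann marker was called lower in satellite cells on day 4 and no erythroid marker was called against day 0. Without replicate 2 of satellite cells on day 2, the members called higher that day numbered 26, with a median of 1.41.

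Among the chromosome genes, both were called higher in every comparison with day 0. Mki67 encodes Ki-67, the coat protein of mitotic chromosomes used as a marker of proliferation. In satellite cells Mki67 was at 4.49, 4.73 and 4.83 on day 0, 6.65, 7.78 and 6.65 on day 2, 7.67, 7.76 and 7.85 on day 4 and 7.71, 7.72 and 8.24 on day 8. Endothelial Mki67 was at 5.37, 4.48 and 4.30 on day 0, 6.62, 7.51 and 6.83 on day 2, 8.16, 8.03 and 7.82 on day 4 and 7.71, 7.25 and 6.72 on day 8. Every later array lay above every day 0 array of its cell type, and the differences from day 0 on days 2, 4 and 8 were 2.34, 3.08 and 3.21 in satellite cells and 2.27, 3.28 and 2.51 in endothelial cells. Top2a encodes topoisomerase II alpha, which untangles sister chromatids. Its level in satellite cells was 3.75, 3.66 and 4.02 on day 0, 6.87, 7.87 and 6.63 on day 2, 7.73, 7.92 and 7.31 on day 4 and 7.84, 7.62 and 7.96 on day 8. In endothelial cells Top2a was at 3.70, 2.96 and 3.25 on day 0, 6.22, 7.47 and 6.91 on day 2, 7.88, 7.83 and 7.41 on day 4 and 7.20, 7.10 and 6.94 on day 8. Top2a had the largest difference of all members in endothelial cells on each day, at 3.57 (SE 0.31, adjusted p = 3.67e-07), 4.40 (SE 0.31, adjusted p = 1.67e-08) and 3.78 (SE 0.31, adjusted p = 4.39e-07). Its satellite cell differences were 3.31, 3.84 and 3.99, with adjusted p from 2.36e-08 to 9.58e-08 in limma.

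The next group holds kinases, cyclins and Foxm1, some of which act in mitotic entry. Of 8 measured, 6, 8 and 7 were called higher in satellite cells on days 2, 4 and 8 and 6, 8 and 4 in endothelial cells. Cdk1, the kinase that starts mitosis, was at 4.11, 4.14 and 3.97 on day 0, 6.50, 8.85 and 6.60 on day 2, 7.49, 7.72 and 6.66 on day 4 and 7.95, 7.70 and 8.19 on day 8 in satellite cells. In endothelial cells Cdk1 was at 4.32, 3.60 and 3.96 on day 0, 5.84, 7.87 and 6.49 on day 2, 7.34, 7.31 and 7.21 on day 4 and 6.94, 7.44 and 6.84 on day 8. Its day 2 arrays were spread by over 2 log2 units in both cell types, and replicate 2 was the highest in each, yet no later array overlapped day 0. The satellite cell differences of Cdk1 on days 2, 4 and 8 were 3.24 (SE 0.49, adjusted p = 3.32e-05), 3.22 and 3.87 (SE 0.49, adjusted p = 2.31e-05). The endothelial values were 2.77, 3.32 and 3.11. Ccna2, which encodes cyclin A2, a partner of the cyclin-dependent kinases in S and G2 phase, had the largest member difference in satellite cells on each day. It came to 3.72 (SE 0.32, adjusted p = 3.58e-08), 4.10 (SE 0.32, adjusted p = 1.68e-08) and 4.05 (SE 0.32, adjusted p = 5.37e-08). Ccna2 in endothelial cells differed from day 0 by 2.43, 3.30 and 2.98. Ccnb2, the gene of cyclin B2, had group means of 5.12, 7.55, 8.50 and 8.03 in satellite cells and 5.12, 7.52, 8.28 and 7.49 in endothelial cells on days 0, 2, 4 and 8, and was called on each day.

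Plk1, the polo-like kinase of centrosomes and kinetochores, was at 4.36, 3.92 and 3.90 on day 0, 5.28, 7.24 and 6.43 on day 2, 6.27, 5.52 and 7.03 on day 4 and 5.75, 5.93 and 5.91 on day 8 in satellite cells. In endothelial cells Plk1 was at 4.01, 4.38 and 3.79 on day 0, 5.44, 6.02 and 5.67 on day 2, 6.36, 6.35 and 5.75 on day 4 and 5.26, 5.72 and 4.58 on day 8. It was the only member whose satellite cell mean was highest on day 2, where its arrays ran from 5.28 to 7.24. The Plk1 difference in endothelial cells was 1.65 (SE 0.40, adjusted p = 0.0125) on day 2, 2.09 on day 4 and 1.13 (SE 0.40, adjusted p = 0.17) on day 8, the last not called. The call on day 2 was lost without endothelial replicate 2 of day 2 (adjusted p = 0.0604 in limma) and without replicate 3 of day 0. Aurka encodes Aurora A of the spindle poles and had means of 4.40, 5.25, 5.69 and 6.08 in satellite cells and 4.33, 5.35, 6.47 and 5.09 in endothelial cells. In endothelial cells it was called on day 4 (2.14) and not on day 8 (0.75, SE 0.28, adjusted p = 0.193). Aurkb, the kinase that corrects faulty microtubule attachments, differed from day 0 by 1.18, 1.49 and 1.76 in satellite cells and 0.86, 1.30 and 1.47 in endothelial cells, where the day 2 value was not called. The kinase gene Melk had among the smallest differences, 0.80 (SE 0.27, adjusted p = 0.0323) in satellite cells on day 2 and 0.67 (SE 0.27, adjusted p = 0.142) in endothelial cells on day 2, and was called only on day 4 in both. Foxm1, a transcription factor that activates G2/M genes, differed by 2.16, 2.37 and 1.96 in satellite cells and 1.66, 1.95 and 1.62 in endothelial cells, the last not called (adjusted p = 0.0897).

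The spindle assembly checkpoint genes and those of the ubiquitin ligase it restrains had 6, 7 and 6 of 7 members called higher in satellite cells and 6, 6 and 3 of 7 in endothelial cells. Bub1, a checkpoint kinase, was at 3.61, 2.94 and 3.56 on day 0, 4.46, 6.24 and 5.27 on day 2, 5.26, 5.63 and 5.23 on day 4 and 6.34, 5.53 and 4.84 on day 8 in satellite cells. In endothelial cells Bub1 was at 3.83, 3.50 and 2.92 on day 0, 4.08, 4.74 and 4.79 on day 2, 5.46, 5.33 and 4.46 on day 4 and 5.14, 4.60 and 4.80 on day 8. Every later array exceeded day 0 in both cell types, by little in endothelial cells on day 2 (highest day 0 array 3.83, lowest day 2 array 4.08). Bub1 was called on all 3 days in satellite cells (1.95, 2.00 and 2.20). In endothelial cells it was called on day 4 alone (1.66, SE 0.41, adjusted p = 0.0144), and that call was lost without replicate 1 (adjusted p = 0.0801 in limma) or replicate 2 of day 4 or replicate 3 of day 0. Cdc20, the activator of the anaphase promoting complex, was at 4.09, 4.05 and 4.63 on day 0, 5.43, 6.78 and 5.90 on day 2, 7.33, 6.79 and 6.89 on day 4 and 5.68, 6.39 and 6.37 on day 8 in satellite cells. In endothelial cells Cdc20 was at 4.09, 4.81 and 4.80 on day 0, 5.90, 6.65 and 5.68 on day 2, 6.56, 6.67 and 6.61 on day 4 and 6.36, 6.17 and 5.69 on day 8. Cdc20 was called on each day in both cell types, with differences of 1.78, 2.74 and 1.89 and 1.51, 2.04 and 1.50. The endothelial call on day 8 was lost without replicate 1 of day 0 (adjusted p = 0.0883 in limma) and without replicate 1 or 2 of day 8. Ube2c, the ubiquitin-conjugating enzyme of that complex, ranked among the 3 largest differences in endothelial cells on every day, at 3.02 (SE 0.38, adjusted p = 3.84e-05), 3.98 (SE 0.38, adjusted p = 1.79e-06) and 3.40 (SE 0.38, adjusted p = 2.54e-05). Satellite cell values of Ube2c were 2.63, 4.08 and 3.28.

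Bub1b, which encodes the BubR1 component of the checkpoint, was called on each day in both cell types (1.88, 2.32 and 1.62 in satellite and 1.73, 2.13 and 1.48 in endothelial cells). Ttk, the Mps1 kinase that starts checkpoint signalling, had the smallest satellite cell difference on day 2 (0.54, SE 0.32, adjusted p = 0.227) and on day 8 (0.85, SE 0.32, adjusted p = 0.104), and was called on day 4 (1.35). Endothelial calls came on days 2 and 4 (1.21 and 1.26). Mad2l1, the gene of the Cdc20 inhibitor Mad2, was called on each day in satellite cells (2.27, 2.43 and 2.43). In endothelial cells Mad2l1 was called on day 2 (1.42) and not on day 4 (1.05, SE 0.39, adjusted p = 0.124) or day 8 (1.04, SE 0.39, adjusted p = 0.199). Cdca3, which promotes mitotic entry, differed by 2.06, 3.03 and 2.34 in satellite cells and 1.49, 2.33 and 1.28 in endothelial cells, where the day 8 value was not called and the day 2 call was lost under 23 alternatives (adjusted p up to 0.279 in limma).

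Of 8 centromere and kinetochore genes, 7 were called higher in satellite cells on each day, and 6, 5 and 4 in endothelial cells. Cenpa encodes the histone H3 variant that marks centromeres. In satellite cells Cenpa was at 5.09, 5.11 and 4.51 on day 0, 6.70, 6.54 and 6.52 on day 2, 7.37, 6.53 and 7.02 on day 4 and 6.42, 7.06 and 6.42 on day 8. The endothelial arrays read 5.45, 5.33 and 5.41 on day 0, 5.19, 6.13 and 5.59 on day 2, 6.12, 6.46 and 6.17 on day 4 and 6.22, 6.05 and 5.69 on day 8. All later satellite cell arrays lay above day 0, whereas in endothelial cells the day 2 arrays spanned the day 0 range. Cenpa was called in satellite cells on each day (1.68, 2.07 and 1.73, SE 0.26 each) and had the smallest endothelial difference on each day, none of them called: 0.24 (SE 0.26, adjusted p = 0.677), 0.86 (SE 0.26, adjusted p = 0.0532) and 0.59 (SE 0.26, adjusted p = 0.311). Ndc80 is the namesake of the complex that grips spindle microtubules. In satellite cells Ndc80 was at 3.55, 2.86 and 3.08 on day 0, 3.78, 6.77 and 4.37 on day 2, 6.29, 5.36 and 6.74 on day 4 and 5.66, 7.04 and 6.43 on day 8. The endothelial arrays gave 3.96, 3.96 and 4.24 on day 0, 4.89, 6.48 and 6.40 on day 2, 5.93, 5.87 and 5.74 on day 4 and 6.31, 5.27 and 6.28 on day 8. On day 2 in satellite cells the array at 6.77 lay far above the other two, and the call of the difference (1.81) was lost without it (adjusted p = 0.163 in limma). The Ndc80 differences on days 4 and 8 were 2.97 and 3.22 in satellite cells, both called. In endothelial cells they were 1.79 (SE 0.57, adjusted p = 0.0655) and 1.90 (SE 0.57, adjusted p = 0.0915), not called, and the day 2 call was lost under 15 of 35 alternatives.

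Nuf2 and Spc25, further subunits of the Ndc80 complex, diverged in size. Nuf2 was called throughout (2.12, 3.21 and 3.32 in satellite and 1.91, 3.09 and 2.44 in endothelial cells). Spc25 was called on each day in satellite cells (1.92, 2.01 and 1.99) and in endothelial cells on day 2 (1.69) but not on day 4 (1.14, SE 0.48, adjusted p = 0.189) or day 8 (1.16). Cenpe, a kinetochore motor, was called throughout, with differences of 1.07, 1.57 and 1.47 in satellite cells and 1.61, 2.31 and 1.35 in endothelial cells. Cenpf, a large kinetochore protein, was called in 1 of the 6 comparisons, endothelial cells on day 4 (1.62, SE 0.33, adjusted p = 0.0037). The satellite cell differences of Cenpf on days 2, 4 and 8 were 0.64 (SE 0.33, adjusted p = 0.164), 0.96 (SE 0.33, adjusted p = 0.051) and 0.97 (SE 0.33, adjusted p = 0.0741). The chromosomal passenger genes Cdca8 (borealin) and Birc5 (survivin), whose products position Aurora B, were called in all 6 comparisons. Cdca8 differed by 1.68 to 2.36 and Birc5 by 2.33 to 2.75.

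Of 8 motor and spindle genes, 6, 8 and 7 were called higher in satellite cells and 5, 8 and 4 in endothelial cells. Kif11 encodes Eg5, the kinesin that pushes spindle poles apart. In satellite cells Kif11 was at 3.44, 3.49 and 4.47 on day 0, 5.11, 6.36 and 5.57 on day 2, 5.86, 6.31 and 5.93 on day 4 and 6.81, 6.57 and 6.12 on day 8. Its endothelial levels were 3.44, 3.07 and 3.76 on day 0, 4.94, 6.11 and 5.44 on day 2, 6.45, 6.16 and 5.80 on day 4 and 5.65, 4.81 and 4.96 on day 8. The cell types overlapped on days 0, 2 and 4, and on day 8 all satellite cell arrays (6.12 to 6.81) lay above all endothelial arrays (4.81 to 5.65). Kif11 differed from day 0 by 1.88, 2.23 and 2.70 in satellite cells and 2.07, 2.71 and 1.71 in endothelial cells, called throughout, and the endothelial day 8 call was lost without replicate 2 of day 0 (adjusted p = 0.0637 in limma) and without replicate 1 of day 8. Kif2c, a microtubule-depolymerising kinesin, differed by 0.48 (SE 0.38, adjusted p = 0.524) in endothelial cells on day 2 and by 1.74 on day 4. In satellite cells Kif2c differed by 1.18, 1.25 and 1.21, not called on day 8 (adjusted p = 0.0503). The chromokinesin gene Kif4 had small differences throughout, between 0.70 and 1.29, and was called in 3 of the 6 comparisons. Kif15, a spindle kinesin, differed by 1.41, 1.95 and 1.98 in satellite cells, called each day, and by 1.42, 1.32 and 1.14 in endothelial cells, where day 8 was not called and the day 4 call was lost under 17 alternatives (adjusted p up to 0.174 in limma). Tpx2, the spindle protein that activates Aurora A, was called throughout (1.43 to 2.27). Nusap1, which bundles spindle microtubules, fell short of the size threshold in satellite cells on day 2 (0.98) and was called in the other 5 comparisons. Hmmr, a spindle-associated protein, was called in 5 of 6 (1.29, 2.02 and 1.88 in satellite and 1.05, 2.48 and 1.57 in endothelial cells, day 2 not called). Ckap2l, another spindle protein, was likewise called in 5 and reached 0.83 (adjusted p = 0.359) in endothelial cells on day 8. Its endothelial day 2 call was lost under 17 alternatives (adjusted p up to 0.157 in limma).

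All 7 cytokinesis genes were called higher in satellite cells on days 2, 4 and 8, and 4, 7 and 3 of them in endothelial cells. Anln encodes anillin, a scaffold of the contractile ring. In satellite cells Anln was at 3.17, 2.87 and 3.68 on day 0, 5.27, 6.83 and 5.21 on day 2, 5.98, 6.34 and 5.86 on day 4 and 6.47, 6.14 and 6.02 on day 8. Endothelial levels were 3.17, 2.79 and 2.90 on day 0, 4.57, 5.54 and 5.42 on day 2, 5.91, 5.51 and 5.72 on day 4 and 5.48, 4.75 and 5.46 on day 8. No later array overlapped day 0, and the differences were 2.53, 2.82 and 2.97 in satellite cells and 2.22, 2.76 and 2.28 in endothelial cells, all called. Kif23, a subunit of the centralspindlin complex of the spindle midzone, differed by 2.90, 2.91 and 3.43 in satellite cells and 2.15, 2.85 and 2.16 in endothelial cells. Its centralspindlin partner Racgap1 differed by 1.24, 1.92 and 1.71 and 1.03, 2.07 and 1.25, and in endothelial cells was called on day 4 alone. Prc1, which bundles the midzone microtubules, was called in all 6 comparisons (1.82 to 3.10). Ect2, an exchange factor of the cleavage furrow, was called on each day in satellite cells (2.05, 2.42 and 2.64) and on day 4 in endothelial cells (2.09). The kinesin genes Kif20a and Kif20b had among the smallest differences of this group. Kif20a differed by 1.08, 1.51 and 1.38 in satellite cells and 0.88, 1.54 and 0.83 in endothelial cells, called there on day 4 alone. Kif20b differed by 1.09, 1.24 and 1.16 and by 1.07, 1.77 and 0.75, the last not called (adjusted p = 0.121).

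**Figure D3:**
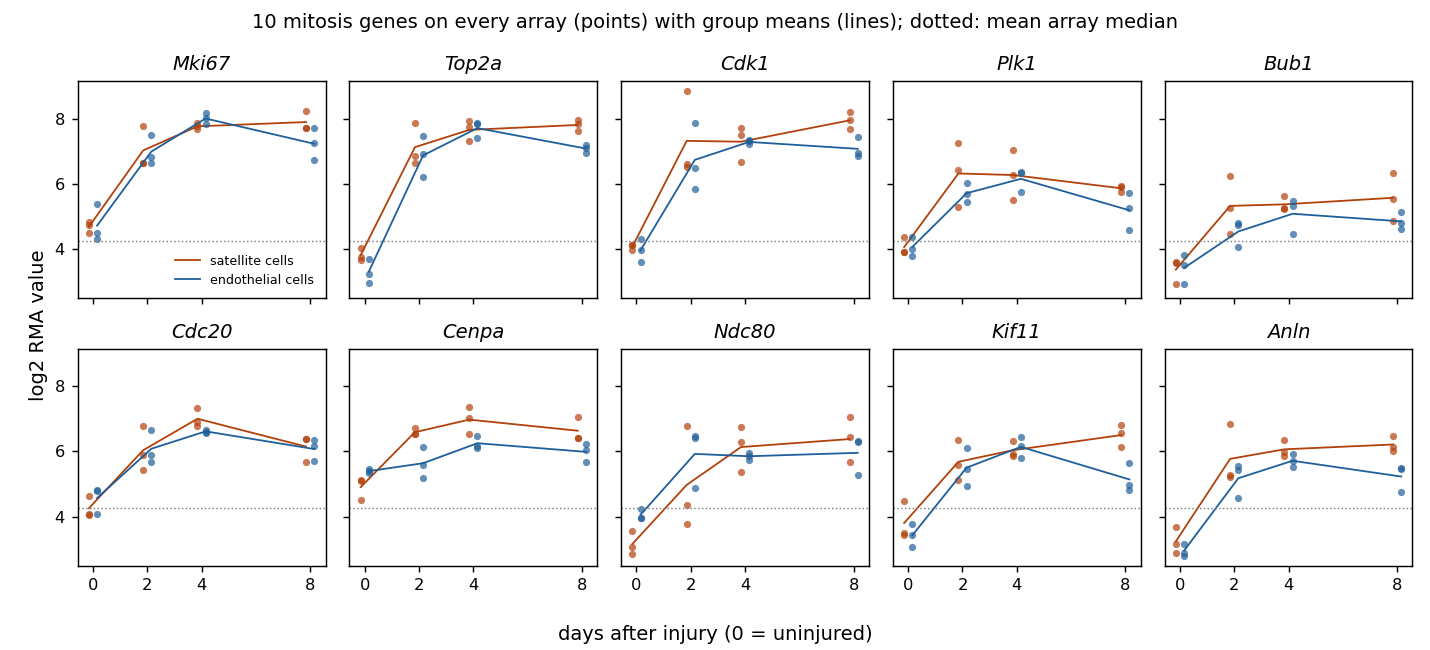
Values of 10 members on every array (points, log2 RMA value) are plotted by day after injury in satellite cells and endothelial cells, with lines through group means and a dotted line at the mean array median. Kif11 parts the cell types on day 8 (6.12 to 6.81 against 4.81 to 5.65) and Cenpa on day 2 (6.52 to 6.70 against 5.19 to 6.13).

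**Figure D4:**
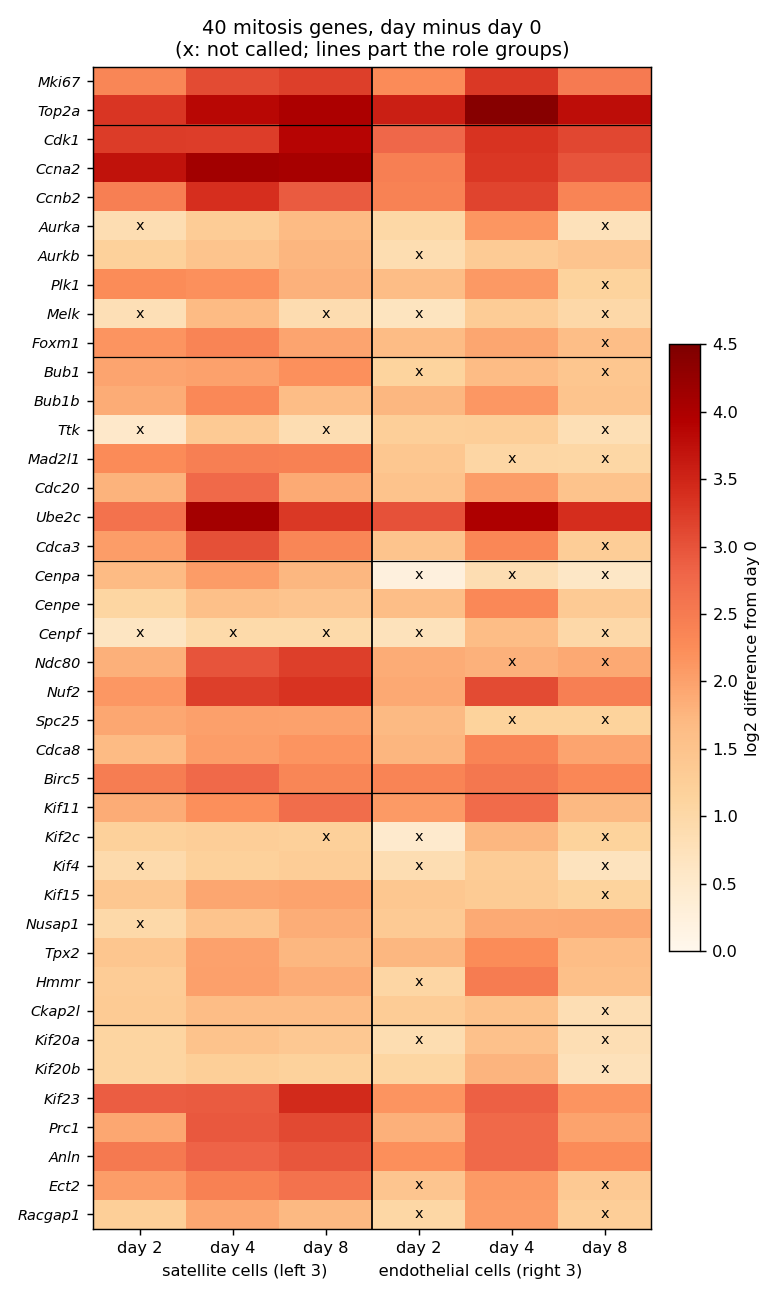
Colour gives the log2 difference from day 0 (scale from 0 to 4.5) for 40 genes in rows, parted by role, on days 2, 4 and 8 in satellite cells (left) and endothelial cells (right), with a cross where a gene was not called. Crosses number 6, 1 and 4 in satellite cells and 11, 4 and 20 in endothelial cells.

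Across the 6 comparisons with day 0, 17 members were called in all of them, Cenpf in 1 and Melk in 2. On day 2, 26 members were called in both cell types, 8 in satellite cells alone, 3 in endothelial cells alone and 3 in neither. On day 4 these numbers were 35, 4, 1 and 0, and on day 8 they were 20, 16, 0 and 4. Of all genes 10.9%, 6.53% and 4.38% were called higher in satellite cells and 3.73%, 3.11% and 1.11% in endothelial cells. Their overlap between the cell types was not counted. Calls in 1 cell type alone do not test a difference. In the differences of responses 1 member was called for day 2 and 0 for days 4 and 8. Of 35 alternative settings, the filter at the array's 75th percentile tested 28 of the 40 members. Calls held under every alternative in which the member was tested for 25 of 34, 38 of 39 and 31 of 36 members in satellite cells and for 17 of 29, 27 of 36 and 13 of 20 in endothelial cells on days 2, 4 and 8. Of the members called on those days, 8, 11 and 8 in satellite cells and 5, 11 and 1 in endothelial cells were not tested under that filter. Without replicate 2 of endothelial cells on day 2, 18 members were called higher in that group in place of 29, and the calls of Aurka, Cdca3, Ckap2l, Foxm1, Kif15, Kif20b, Mad2l1, Ndc80, Nuf2, Plk1 and Ttk were lost (limma's adjusted p from 0.0474 to 0.279, or a difference under 1). Without replicate 2 of satellite cells on day 2 the calls of Cenpe, Ckap2l, Ect2, Hmmr, Kif20a, Kif20b, Kif2c and Ndc80 were lost (adjusted p from 0.0128 to 0.163, or a difference under 1). In satellite cells Kif2c lost its day 4 call without any of 5 arrays (adjusted p up to 0.127), and Foxm1, Spc25, Ckap2l and Kif4 lost their day 8 calls without 1 or more arrays (up to 0.0861). In endothelial cells on day 4 this befell Bub1, Ckap2l, Ect2, Foxm1, Kif15, Kif2c, Kif4, Melk and Ttk, most of them without replicate 1 of that day (7 genes, adjusted p up to 0.174). On day 8 it befell Bub1b, Cdc20, Cenpe, Hmmr, Kif11, Nuf2 and Tpx2, 6 of them without replicate 1 of that day (adjusted p up to 0.121).

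The timing was then compared between the cell types. All 40 members had their lowest mean on day 0 in both. In satellite cells the highest mean fell on day 4 for 21 members, on day 8 for 18 and on day 2 for Plk1. In endothelial cells it fell on day 4 for 34, on day 2 for Mad2l1, Spc25 and Kif15, and on day 8 for Aurkb, Ndc80 and Nusap1. Of the difference between days 4 and 0, a median of 79.4% was present on day 2 in satellite cells and 73.9% in endothelial cells. The day 2 satellite cell values here, also for Plk1, come from the arrays whose markers go against their label. On day 8 the median was 98.8% in satellite cells (53.2% to 130%) and 74.3% in endothelial cells (35.2% to 113%). These shares are descriptions of group means on the log2 scale, and members are not replicates.

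Between successive days few member differences passed the test. From day 2 to day 4 in satellite cells, Ube2c rose by 1.45 (SE 0.38, adjusted p = 0.0135), the only member called, where 10.5% of all genes were called in either direction. The Ube2c call was lost without replicate 1 of satellite cells on day 2 (adjusted p = 0.117). The median member difference for this step was 0.41, with 38 of 40 positive. It was 0.81 without replicate 2 of satellite cells on day 2 and 0.25 without replicate 1, and the day 2 arrays are those whose markers go against their label. In the 6 members Aurka, Ttk, Melk, Ccnb2, Cdc20 and Ube2c all day 4 arrays lay above all day 2 arrays, as they did for 12.6% of all genes. Without replicate 2 of satellite cells on day 2, 9 members were called for this step. From day 4 to day 8 in satellite cells no member was called in limma, where 1.68% of all genes were. There 2 members had an unadjusted p under 0.05, as did 1831 of the 14064 genes. The median was -0.02, with 18 positive and 22 negative, and ranged from -0.11 to 0.01 with 1 array left out. In Cdc20, Ube2c, Melk, Bub1b and Ccnb2 all day 8 arrays lay below all day 4 arrays, 5 of 40 against 8.71% of all genes. Cdc20 had the lowest value of this step (-0.85, adjusted p = 0.236) and Cdk1 the highest (0.65, adjusted p = 0.625).

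In endothelial cells no member was called between days 2 and 4 in limma, where 0.37% of all genes were. There 18 members had an unadjusted p under 0.05, as did 1381 of the 14064 genes. The median was 0.62 (0.38 without replicate 1 of day 2), with 36 of 40 positive, and in 11 members the day 4 arrays lay wholly above day 2, against 7.84% of all genes. Hmmr had the largest difference (1.43, SE 0.34, adjusted p = 0.0704). From day 4 to day 8 again no member was called, where 0.121% of all genes were. There 11 members had an unadjusted p under 0.05 in limma, as did 1140 of the 14064 genes. The median was -0.61, with 36 of 40 negative, and in 17 members the day 8 arrays lay wholly below day 4, against 7.87% of all genes. The lowest values were Aurka at -1.38 (SE 0.28, adjusted p = 0.0523), Cdca3 at -1.05 (adjusted p = 0.537), Kif20b at -1.02 (adjusted p = 0.121) and Kif11 at -0.999 (adjusted p = 0.383). The Aurka arrays were 7.00, 6.51 and 5.90 on day 4 and 5.30, 5.22 and 4.74 on day 8. The leukocyte list ranged from 6.06 to 8.13 on day 4 and from 4.96 to 5.82 on day 8 in the same arrays, and its part in this step was not tested.

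**Figure D5:**
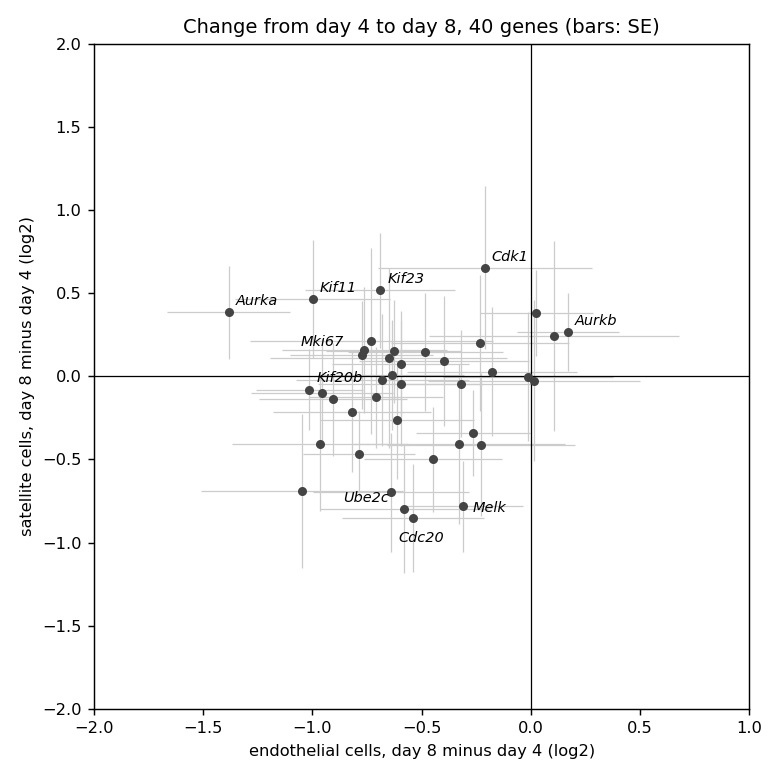
Each of the 40 members is placed by its log2 difference between days 8 and 4 in endothelial cells (horizontal) and in satellite cells (vertical), with bars of 1 SE. Of the 40 points, 36 lie left of zero (median -0.61), while the vertical values spread around zero (median -0.02), and none of these differences was called.

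The cell types were compared directly on each day. On day 0 no member was called between them in limma, where 17% of all genes were, and 20 members were higher in each cell type. There 1 member had an unadjusted p under 0.05, as did 4565 of the 14064 genes. On day 2 no member was called (12.1% of all genes) and 3 had an unadjusted p under 0.05 in limma, as did 3691 of the 14064 genes. The median of satellite minus endothelial values was 0.18. It turned to -0.20 without replicate 2 of satellite cells and to -0.05 without replicate 1 of endothelial cells, and was 0.46 and 0.35 without satellite replicate 1 and endothelial replicate 2. On day 4 no member was called (12.9% of all genes) and 3 had an unadjusted p under 0.05 in limma, as did 3889 of the 14064 genes. The median of 0.18 turned to -0.03 without replicate 3 of endothelial cells and was 0.30 without their replicate 1. On day 8 Kif11 was called, being higher in satellite cells by 1.36 (SE 0.36, 95% interval 0.62 to 2.10, adjusted p = 0.00871), where 13.9% of all genes were called in either direction. This call held under all 35 alternatives, which gave 1.19 to 1.62 with adjusted p from 0.00469 to 0.0478. The median on day 8 was 0.61 (0.39 without endothelial replicate 3), and 38 of 40 members were higher in satellite cells. In limma 9 members had an unadjusted p under 0.05, as did 4183 of the 14064 genes in either direction. In 15 of the 40 members all satellite cell arrays lay above all endothelial arrays, against 16.3% of all genes. By that overlap the members' share exceeded the background, while by calls and by unadjusted p it did not. Aurka came next in p with 0.99 (SE 0.28, adjusted p = 0.0147), just under the size threshold, and Cdca3 differed by 1.27 (SE 0.46, adjusted p = 0.0616).

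Whether the response itself differed between cell types was tested as the difference of the 2 changes. For day 2 minus day 0, Cenpa responded more in the arrays labelled satellite cells by 1.44 (SE 0.37, 95% interval 0.68 to 2.21, adjusted p = 0.0131), the only member called, where 11.5% of all genes were. This held under all 35 alternatives, at 1.22 to 1.69 with adjusted p from 0.00511 to 0.0434. On days 4 and 8 the Cenpa value was 1.21 (adjusted p = 0.0687) and 1.14 (adjusted p = 0.122). The median over members for day 2 was 0.14 and ranged from -0.20 to 0.39 with 1 array left out, below 0 without replicate 2 of satellite cells or replicate 1 of endothelial cells on day 2. For day 4 minus day 0 no member was called (4.24% of all genes) and 3 had an unadjusted p under 0.05 in limma, as did 2219 of the 14064 genes. The median of 0.11 ranged from -0.08 to 0.21 with 1 array left out, falling below 0 without replicate 3 of endothelial cells on day 4. For day 8 minus day 0 no member was called (2.2% of all genes) and 6 had an unadjusted p under 0.05 in limma, as did 2103 of the 14064 genes. The median was 0.56 with 36 of 40 positive. For day 4 minus day 2 no member was called (5.4% of all genes) and 1 had an unadjusted p under 0.05 in limma, as did 2675 of the 14064 genes. The median of -0.20 ranged from -0.41 to 0.24 with 1 array left out, above 0 without replicate 2 of satellite cells or replicate 1 of endothelial cells on day 2. For day 8 minus day 4 no member was called (0.22% of all genes) and 4 had an unadjusted p under 0.05 in limma, as did 1207 of the 14064 genes. The median was 0.52 with 31 of 40 positive. The largest values of this last contrast were Aurka at 1.77 (SE 0.40, adjusted p = 0.0657) and Kif11 at 1.47 (SE 0.50, adjusted p = 0.368).

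Of 18 further condensin and cohesin genes, which shape and hold the chromosomes, 6, 6 and 6 were called higher in satellite cells on days 2, 4 and 8 and 6, 6 and 4 in endothelial cells. The shares of all genes called higher on those days were 10.9%, 6.53% and 4.38% in satellite cells and 3.73%, 3.11% and 1.11% in endothelial cells. On day 4 Ncapd2, a condensin subunit, rose by 2.22 in satellite cells and 2.44 in endothelial cells, and Smc2, a condensin ATPase, by 1.91 and 1.60. Smc1a of cohesin (-0.38 and -0.09) and the securin gene Pttg1 (-0.68 and -0.40) were not called. Of 32 further centromere and kinetochore genes, 10, 14 and 11 were called higher in satellite cells and 5, 6 and 1 in endothelial cells. Cenpp, of the inner kinetochore, rose by 2.56 and 1.73, while Spc24, a subunit of the Ndc80 complex, rose by 2.51 in satellite cells and differed by 0.69 (adjusted p = 0.321) in endothelial cells. Mad2l1bp (-0.63 and -0.89) and Zw10 (-0.41 and -0.61) were not called. Of 16 anaphase promoting complex genes, 0, 1 and 0 were called higher in satellite cells and 1, 0 and 0 in endothelial cells. For day 4 in satellite cells 1 of 16 lies near the all-gene share of 6.53%. The one on day 4 was Fbxo5, which encodes the inhibitor Emi1, at 1.58 in satellite cells and 0.93 (adjusted p = 0.323) in endothelial cells. Anapc15 (2.06, adjusted p = 0.0595, and 1.88, adjusted p = 0.148), Anapc2 (-0.48 and -0.19) and Anapc11 (-0.12 and 0.10) were not called.

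Of 14 further mitotic entry genes, 3, 4 and 3 were called higher in satellite cells and 2, 4 and 0 in endothelial cells. The shares of all genes called higher were 10.9%, 6.53% and 4.38% in satellite cells and 3.73%, 3.11% and 1.11% in endothelial cells. Cdkn3, a phosphatase of cyclin-dependent kinases, rose by 3.71 in satellite cells and 2.89 in endothelial cells on day 4, and Cks1b, a small kinase-binding protein, by 2.01 in satellite cells (1.54, adjusted p = 0.0644, in endothelial cells). Pkmyt1, which inhibits Cdk1 (-0.93 and -0.14), and Ensa (-0.64 and -0.33) were not called. Of 26 further spindle, centrosome and cytokinesis genes, 7, 11 and 11 were called higher in satellite cells and 5, 12 and 3 in endothelial cells. Tacc3 of the spindle rose by 2.45 and 2.02 and Arhgap11a by 2.34 and 1.90 on day 4. Haus4 (-0.13 and 0.21) and Kif3a, a kinesin of cilia (-0.07 and 0.26), were not called. Of 17 genes of the MuvB, B-Myb and E2F regulators, 5, 3 and 5 were called higher and 2, 1 and 0 lower in satellite cells, and 2, 3 and 3 were called higher in endothelial cells. The lower counts lie near the shares of all genes called lower in satellite cells, 9.67%, 5.47% and 2%. E2f8, a repressor of the E2F family, rose by 2.74 and 1.09 on day 4, E2f2 rose by 1.72 in satellite cells (0.19 in endothelial cells), and Lin52, a MuvB subunit, fell by 1.25 in satellite cells (-0.60, not called, in endothelial cells). E2f5 was not called (-0.83 and -0.61).

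For comparison with the preceding phase of the cycle, 31 DNA replication genes were counted. In satellite cells 17, 16 and 17 were called higher on days 2, 4 and 8, with medians of 1.20, 1.24 and 1.30, and in endothelial cells 11, 4 and 0, with medians of 0.94, 0.58 and 0.53. The shares of all genes called higher were 10.9%, 6.53% and 4.38% in satellite cells and 3.73%, 3.11% and 1.11% in endothelial cells. Rrm2, the small subunit of ribonucleotide reductase, rose by 3.47 in satellite cells and 1.97 in endothelial cells on day 4, and Uhrf1, which maintains DNA methylation at forks, by 2.62 and 1.51. Fen1 (0.31 and 0.61) and Orc1 (0.36 and 0.21) were not called. In endothelial cells the replication list had its highest median on day 2 and the mitosis genes theirs on day 4 (1.56 on day 2 and 2.09 on day 4), a difference in order that was not tested.

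Over the 24 arrays the members varied together. The Pearson correlation of a member with the mean of the other members ran from 0.758 for Ttk to 0.978 for Top2a, with a median of 0.912. The arrays share the contrast between day 0 and the later days, which sets much of these values, so they are descriptions. Outside the list, the 8 genes whose values followed the member mean most closely over the 24 arrays were Knl1 (r = 0.960), H2bc13 (0.959), Cip2a (0.953), Ncapd2 (0.952), H2ac10 (0.949), Tacc3 (0.948), H2ac22 (0.928) and Pclaf (0.911). They were picked on these same arrays with their contrast between day 0 and later days, so their calls against day 0 follow from the choice. All 8 were called higher on day 4 in both cell types, where 6.53% of all genes in satellite cells and 3.11% in endothelial cells were. In endothelial cells on day 8 H2ac10 (limma's adjusted p = 0.0591) and H2ac22 (adjusted p = 0.0834) were not called. Knl1, the kinetochore scaffold that recruits Bub1, rose by 2.42 in satellite cells and 2.34 in endothelial cells. The histone genes H2bc13, H2ac10 and H2ac22 rose by 3.10, 2.55 and 2.56 in satellite cells and by 2.29, 1.75 and 1.65 in endothelial cells, and sequence shared among histone genes can leave single probe sets unspecific. Pclaf, a partner of the replication clamp PCNA, rose by 3.39 and 2.40, and Cip2a, an inhibitor of protein phosphatase 2A, by 2.40 and 1.94.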

How the data were processed

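RNA was amplified from 750 pg of total RNA and hybridised to 24 arrays, per the labels' protocols. The authors deposited log2 values made with RMA, per the submitters' processing notes, for which no version is given. The genome build is not given in the sources used here. The table holds 24479 probe sets. Symbols come from the platform's annotation (23281 probe sets), and promoter windows from RefSeq (GRCm38.p6). The number of arrays limits the precision.

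A gene was tested if it lay above the array median on at least 3 arrays (14064 genes). One limma 3.58.1 model in R 4.3.3, with a mean for each group and eBayes moderation, covered every array (16 residual degrees of freedom). Tests are two-sided with Benjamini-Hochberg adjustment over all genes of a comparison. Calls needed an adjusted p below 0.05 and a log2 difference of 1 or more in size. Comparisons were later days against day 0, successive days, satellite against endothelial cells, and differences of responses. The fit was tested on simulated data.

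The members and lists were chosen with earlier results of these data known. Named genes are all 41 members, array by array for 1 or more in each role group, the 3 largest and 3 smallest differences of each comparison with day 0, members called in a difference of responses, the 2 largest and 2 smallest day 4 differences in satellite cells of each pathway list, and the 8 closest correlates of the member mean. Other genes with values (Aurka, Hmmr and Cdca3 between days or cell types) were named after their values were seen. Same-numbered arrays of the 2 cell types on a day correlated after centring on group means at -0.06 to 0.20 (4 of 12 pairs over 0.1), so replicate numbers were not used as pairs. Alternatives changed the filter, normalization, moderation, weights, probe set choice, arrays fitted and replicate block, and left out each array in turn.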

Additional observations from a re-analysis of the deposited data

Results flagged for a closer look

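The response of Cenpa, the centromeric histone H3 variant, from day 0 to day 2 differed between endothelial cells and the arrays labelled satellite cells. From day 0 to day 2 its difference came to 1.68 for satellite cells, against 0.24 for endothelial cells, and the difference of these responses was 1.44 (SE 0.37, limma's adjusted p = 0.0131). Of the 40 members 1 was called in this contrast, where 11.5% of all genes were. For days 4 and 8 against day 0 no difference of responses was called for any member. All 3 arrays labelled satellite cells on day 2 lay above all 3 of day 0, while the endothelial arrays overlapped. On day 2 the leukocyte markers ranged from 8.95 to 10.58 in satellite cells and from 5.90 to 8.23 in endothelial cells, and their part in this difference was not tested. In those satellite cell arrays Pax7 lay at 4.67 to 5.70, overlapping the 4.22 to 5.65 of the endothelial arrays, so this marker goes against the label.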

How the results depend on the processing

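Each count and median over members was recomputed under 11 alternatives that keep all arrays and with each of the 24 arrays left out. Of 26372 member differences so obtained, 26034 kept their side of the threshold, 206 were no longer called, 132 were newly called and none of the called ones changed sign. Changes of sign in differences that were not called were not counted. The filter at the array's 75th percentile tested 28 of the 40 members, so its medians and counts are over fewer genes: called members against day 0 went from 34 to 26, 39 to 28 and 36 to 28 in satellite cells and from 29 to 24, 36 to 26 and 20 to 19 in endothelial cells on days 2, 4 and 8. The medians moved by more than the spread between replicates with that filter in satellite cells on day 4 (2.58) and day 8 (2.38) and endothelial cells on day 8 (1.81) against day 0, with repeated quantile normalization in satellite cells on day 4 (2.28), and between the cell types on day 0 with array medians subtracted (-0.16) or quantile normalization (-0.12). The causes of the moves outside that filter were not tested.

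Counts of called members moved as follows. For satellite cells from day 2 to day 4 (main 1) array weights gave 8, quantile normalization and no minimum difference 3 each, and a fit of these groups alone 0. For endothelial cells array weights gave 1 from day 2 to day 4 and 2 from day 4 to day 8, where the 75th percentile filter, subtracted medians, an intensity trend and the fixed replicate block each gave 1 (main 0 in both). Between the cell types subtracted medians gave 1 on day 0, array weights and no minimum difference 1 on day 2, and no minimum difference 1 on day 4 (main 0). On day 8 (main 1) weights gave 3 and the 75th percentile filter, the 2 groups alone and no minimum difference 2 each. For differences of responses (main 0), quantile normalization and weights gave 1 for day 4 minus day 0, and subtracted medians and weights 1 for day 8 minus day 4.

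With 1 array left out the count ranged from 18 to 31 for endothelial cells on day 2 against day 0, 0 to 9 for satellite cells from day 2 to day 4, and 0 to 1 for endothelial cells from day 2 to 4 and from day 4 to 8. Between the cell types it ranged from 0 to 1 on days 2 and 4 and from 1 to 3 on day 8, where the median ranged from 0.39 to 0.68. For differences of responses it ranged from 1 to 2 for day 2 minus day 0 and from 0 to 1 for day 4 minus day 0, day 4 minus day 2 and day 8 minus day 4. The median in satellite cells on day 8 against day 0 ranged from 1.82 to 2.05. Apart from the count given above, among members the fixed or random replicate block left each count within 1.5 times, for example 27 and 29 members for endothelial cells on day 2.

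Counts over all genes moved by more than 1.5 times under 3 kinds of setting. Array weights moved them in endothelial cells from 52 to 154 (day 2 to day 4), 17 to 62 (day 4 to day 8) and 289 to 459 (day 0 to day 8), in satellite cells from 236 to 412 (day 4 to day 8), and for responses from 1614 to 2443, 596 to 1047 and 310 to 512 (days 2, 4 and 8 against day 0), 759 to 1713 (day 4 against day 2) and 31 to 76 (day 8 against day 4). Fitting only the compared groups, which leaves fewer arrays, moved them in satellite cells from 1483 to 635 (day 2 to day 4), 236 to 56 (day 4 to day 8) and 897 to 581 (day 0 to day 8), in endothelial cells from 52 to 0 (day 2 to day 4), between the cell types on day 2 from 1706 to 785, and for responses from 759 to 392 (day 4 against day 2) and 31 to 16 (day 8 against day 4). The fixed replicate block moved the count in endothelial cells from day 4 to day 8 from 17 to 38. Subtracting array medians moved the all-gene median by up to -0.16 (cell types on day 0). It moved the share of higher calls from 63.2% to 75.3% and from 51.6% to 66.7% for the responses of day 8 against days 0 and 4, and from 44.6% to 34.3% between the cell types on day 0. Signal near background on day 0 limits the differences of most members.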
